A study of Mus musculus with 4 samples.

Results

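The cells described here are GABAergic cells of the mouse hippocampus that carried the transcripts of Lamp5 and Hapln1 and had no UMI (unique molecular identifier, a tag that counts each captured transcript once) of Reln. They were chosen by measured values, all of them UMI counts of the cell. A cell was taken when it had 200 to 6000 detected genes, under 30% of its UMIs from mitochondrial genes, at least 2 UMIs of Gad1 and Gad2 together, no UMI of Mog or Crabp1, at least 3 of Hapln1, at least 1 of Lamp5, Sst under 3000 CPM (UMIs of a gene over all UMIs, in the usual unit of CPM) and no UMI of Reln. This gave 596 cells of the 14409 hippocampal cells that passed the gene and mitochondrial limits, and of 26201 such cells in the whole series. A repeat with cells of at least 5000 UMIs left 461 of them. The working name of these cells was Reln-negative ivy-like cells, and they are called Reln-0 cells here, after the rule, for reasons given with the markers.

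The study asked what an early loss of NMDA receptors did to the transcriptomes of interneurons born in the medial ganglionic eminence. Mice carried Nkx2-1-Cre and the Ai14 reporter with either wild-type Grin1 on both chromosomes (WT) or floxed Grin1 on both (null), and tdTomato-positive cells were sorted from hippocampus and cortex at postnatal days 18 to 20 for droplet RNA sequencing. The hippocampus gave 3 WT libraries and 2 null libraries. Mice of both sexes and shared litters were used, and each library pooled several mice, so the library and not the mouse was the replicate. In the cells described here Xist RNA, a mark of female cells, was seen in WT replicates 1 and 3 only. Sex and genotype therefore cannot be fully told apart.

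Several features limit these groups as a model. Cre driven by Nkx2-1 marks interneurons of the medial ganglionic eminence and also oligodendrocyte lineage cells, so the sort kept both. Grin1 was lost in every cell type with Cre, and from the embryo on. Replicate 1 of each genotype was made with the v2 chemistry and the rest with v3, so chemistry and replicate number went together. Values listed for 5 libraries follow the order WT replicates 1, 2 and 3, then null replicates 1 and 2.

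Neurogliaform cells and ivy cells are GABAergic interneurons with dense local axons that release GABA diffusely and evoke slow inhibition in their neighbours. In the hippocampus, ivy cells and part of the neurogliaform cells come from the medial ganglionic eminence and make neuronal nitric oxide synthase, the product of Nos1, together with neuropeptide Y. Other neurogliaform cells come from the caudal ganglionic eminence, lack Nos1 and secrete reelin, the matrix glycoprotein encoded by Reln.

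The libraries differed in depth. All barcodes of a library together held 10555408, 8782181, 20639002, 3856745 and 47338167 UMIs. Kept cells had medians of 4411, 1479, 5752, 8949 and 9763 UMIs a cell. WT replicate 2 was the shallowest and null replicate 2 the deepest, and both null libraries had higher medians than any WT library. The Reln-0 cells numbered 71, 62, 163, 25 and 275, with medians of 4469, 2578, 9654, 11771 and 12982 UMIs and 2237, 1484, 3660, 3967 and 4277 genes. Mitochondrial UMIs made up a median of 1.46% in WT replicate 1, 1.88% in WT replicate 2, 1.497% in WT replicate 3, 0.976% in null replicate 1 and 1.76% in null replicate 2. These medians are of cells kept under the 30% limit, and the gene and mitochondrial limits removed more barcodes from null replicate 2 than from any other hippocampal library. Over the 45 pairs of libraries of the series 95 shared barcodes were counted, of which 2 were Reln-0 cells in either library and none in both. Scrublet scored 10 of the 596 cells (1.68%) as doublets.

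WT replicate 2 stood apart from the other libraries. In its Reln-0 cells the myelin gene Mbp was at 1014 CPM, against at most 201 in any other library. Its nuclear RNA Malat1 was at 78719 CPM, against 11948 to 49531 elsewhere. Null replicate 2 shared with it a high level of the immediate early genes Fos, Jun and Egr1, given with the genotype comparison.

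The values used by the rule are a description. The median Reln-0 cell had 15 UMIs of Hapln1 (at most 89), 6 of Lamp5 (at most 23), 21 of Gad1 and 23 of Gad2, and 73.0% had no UMI of Sst. At the edges, 43 cells had exactly 3 Hapln1 UMIs and 47 cells that met all else had exactly 2. Exactly 1 Lamp5 UMI was seen in 86 cells, and 185 cells that met all else had none. At the Reln edge, 167 cells had exactly 1 Reln UMI and so fell outside, 101 had 2, and 21 had 10 or more. Crabp1 removed no cell and the Sst limit removed 1.

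A Reln count of 0 depended on depth. Of the 1067 cells that met every criterion but the one on Reln, 71.2% had no Reln UMI among those under 2500 UMIs, 77.2% from 2500 to 5000, 56.4% from 5000 to 10000, 52.9% from 10000 to 15000 and 45.3% at 15000 or more. The libraries did not share this fall. In null replicate 2 the share was 58.2%, 50.4% and 40.0% over the 3 upper bands, and in WT replicate 3 it was 47.9%, 58.8% and 73.1%, the last from 26 cells. Each comparison was repeated with cells of at least 5000 UMIs.

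The label was checked against its markers. Hapln1 and Lamp5 were used by the rule and are no evidence for the name. Nos1, Id2, an inhibitor of basic helix-loop-helix factors, and Sema3c, a secreted semaphorin, were independent of it. In Reln-0 cells 72.1% had a UMI of Nos1, 92.8% of Id2 and 72.8% of Sema3c at a median depth of 10434 UMIs. Oligodendrocytes of the same libraries (at least 3 Mog UMIs and no Gad1 or Gad2), which should lack these genes, gave 0.407%, 2.25% and 0.503% at a median of 6119 UMIs. With every cell thinned to 2000 UMIs the shares were 34.0%, 76.2% and 38.5% in Reln-0 cells and 0.139%, 0.668% and 0.167% in oligodendrocytes, so the shares in Reln-0 cells lay far above those of cells that should lack the genes.

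Ivy cells are known for Nos1 together with Npy. Both were detected in 378 of the 596 cells (63.4%), Nos1 without Npy in 52, Npy without Nos1 in 120 and neither in 46. By library the share with both was 25.4%, 41.9%, 68.7%, 56.0% and 75.6%, lowest in the shallow WT replicates 1 and 2. With at least 5000 UMIs it was 72.5% of 461 cells, or 35.5%, 71.4%, 74.6%, 56.0% and 77.3% by library, so WT replicate 1 was low also among its 31 deeper cells. All of Nos1, Id2 and Sema3c were detected in 339 cells (56.9%) and none of them in 15 (2.52%). A UMI of Nkx2-1 or Lhx6, transcription factors of the medial ganglionic eminence, was seen in 493 cells (82.7%). After thinning, Npy was seen in 75.9% of Reln-0 cells, 35.5% of other GABAergic cells and 3.09% of oligodendrocytes, Lhx6 in 31.7%, 17.4% and 0.223%, and Nkx2-1 in 13.1%, 2.72% and 0.195%. The part of free RNA in the cells with both Nos1 and Npy was not tested. The name ivy-like is not settled by these markers, since Nos1, Id2 and Sema3c did not tell Reln-0 cells from the cells with Reln, as given with that comparison, and a count of 0 for Reln is not an absence of Reln.

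The share of Reln-0 cells among the 1067 cells meeting all other criteria was 78.9% of 90 cells in WT replicate 1 (Wilson 95% interval 69.4 to 86.0), 68.9% of 90 in WT replicate 2 (58.7 to 77.5), 58.4% of 279 in WT replicate 3 (52.6 to 64.1), 59.5% of 42 in null replicate 1 (44.5 to 73.0) and 48.6% of 566 in null replicate 2 (44.5 to 52.7). WT replicate 3 lay under null replicate 1, so the genotypes overlapped. These intervals cover counting error only. The means were 68.7% ± 10.2 (SD, n = 3) in WT and 54.1% ± 7.73 (SD, n = 2) in null, a difference of -14.7 percentage points with a two-sided exact permutation p of 0.3, where 3 libraries against 2 can give no p under 0.1. With cells of at least 5000 UMIs the difference was -12.3 points (exact p 0.4). With every cell thinned to 2000 UMIs the shares were 90.8%, 78.9%, 78.9%, 85.7% and 79.3%, a difference of -0.377 points (exact p 1). Within the v2 chemistry the difference was -19.4 points and within replicate 2 it was -20.3, and after thinning these were -5.09 and 0.345.

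As a share of GABAergic cells (Gad1 and Gad2 at 2 UMIs or more, no Mog), Reln-0 cells made up 15.7%, 5.29%, 22.1%, 15.2% and 17.6%. WT replicate 2 was far under the rest and WT replicate 3 was the highest, so both null libraries lay inside the WT range. The means were 14.4% ± 8.47 (SD, n = 3) and 16.4% ± 1.73 (SD, n = 2), a difference of 2.01 points (exact permutation p 0.9). WT replicate 2 decided the sign, and without it the difference was -2.53 points. Within the v2 chemistry it was -0.591 and within replicate 2 it was 12.3. With cells of at least 5000 UMIs the difference was 3.15 points (exact p 0.6).

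**Figure D1:**
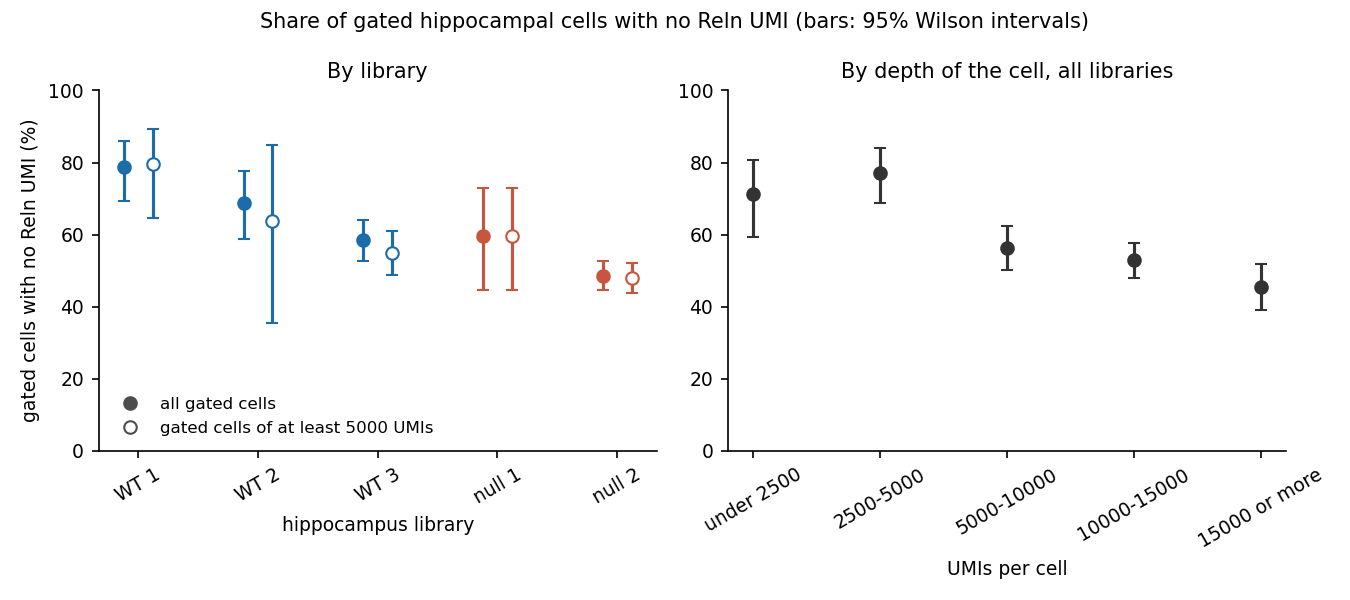
Percent of hippocampal cells meeting every other criterion that had no Reln UMI, with 95% Wilson intervals, by library (filled, all cells; open, cells of at least 5000 UMIs) and by depth of the cell over all libraries. WT replicate 3 (58.4%) lies under null replicate 1 (59.5%), and by depth the share goes from 71.2% under 2500 UMIs to 45.3% at 15000 or more.

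The closest cells were the 471 that met the same criteria with at least 1 Reln UMI, 19, 28, 116, 17 and 291 by library, at a median of 12365 UMIs. The comparison asks what else separates the cells with and without Reln inside 1 library. The UMIs of each class were added up in every library and compared with edgeR with the library as a block. A gene passed when its adjusted p was below 0.01 and its log2 fold at least 0.144 in size. Of 5389 genes tested 344 passed (6.38%), 188 higher (3.49%) and 156 lower (2.89%) in Reln-0 cells. The rule genes Hapln1, Lamp5 and Gad1 are among them, from which nothing is read, and Reln was set aside. Without WT replicate 3 the count was 129 and without null replicate 2 it was 136, the libraries with the most cells, and 127 and 130 of these were among the 344. DESeq2 passed 100 genes, 99 of them shared. Among cells of at least 5000 UMIs 401 passed, 305 of them shared, but WT replicate 2 had too few such cells with Reln and dropped out, so depth and the set of libraries changed together.

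Against cells with Reln, Reln-0 cells had more Prox1, Cnr1 and Cck, which are known from interneurons of the caudal ganglionic eminence. They did not have more of every such gene. Prox1, a homeodomain factor (chromosome 1, 190118035 to 190170714, GRCm38), was at 59.7, 107, 51.4, 45.8 and 50.3 CPM in Reln-0 cells and at 21.3, 0, 6.17, 10.4 and 10.3 in cells with Reln. Cnr1, the cannabinoid receptor of nerve terminals (chromosome 4, 33924593 to 33948831), was at 307, 133, 143, 125 and 193 against 63.9, 84.5, 45.8, 52.1 and 30.9. Both were higher in Reln-0 cells in every library, with no overlap between the classes. The values of cells with Reln rested on few UMIs in several libraries, 2, 0, 7, 2 and 42 for Prox1 and 6, 7, 52, 10 and 126 for Cnr1. The log2 fold was 2.46 (SE 0.21, adjusted p 1.41e-15) for Prox1 and 2.24 (SE 0.14, adjusted p 3.81e-22) for Cnr1. Cck, which encodes the peptide cholecystokinin (chromosome 9, 121489824 to 121495694), was at 1268, 1014, 2118, 2167 and 2335 against 447, 423, 1099, 1135 and 865. It was higher in all 5 libraries, by 1.20 (SE 0.074, adjusted p 6.35e-22), although the ranges over libraries overlapped. Of the 7 markers of caudal eminence cells 3 were tested and all 3 passed, with a median log2 fold of 2.24 beside 0.00 over all genes tested. Their summed level was 1663, 1276, 2336, 2338 and 2610 against 554, 519, 1189, 1239 and 934, with Cck the most abundant. Of the members too low to test, Vip had no UMI in 4 of the 5 libraries of Reln-0 cells. Ndnf had 4 UMIs against 12 in WT replicate 3 and 5 against 39 in null replicate 2, and Sncg was at 25.6, 16.0, 19.5, 0 and 28.4 CPM against 21.3, 0, 27.3, 41.7 and 15.7, with mixed direction.

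Detection of these genes was compared with background. After thinning, Prox1 was seen in 9.75% of Reln-0 cells, 2.41% of cells with Reln, 0.730% of other GABAergic cells and 19.8% of oligodendrocytes. The share in Reln-0 cells thus lay under that of the myelin-forming cells, which were at 109 CPM of Prox1, and above that of both other GABAergic classes from the same libraries. The part of free RNA in the Prox1 level was not tested. For Cnr1 the shares were 27.7%, 5.91%, 26.0% and 0.278%, and for Cck 79.3%, 55.1%, 17.4% and 0.556%, so oligodendrocytes were near 0 for both. Cnr1 was thus seen about as often in other GABAergic cells as in Reln-0 cells, and the cells with Reln were the low class. A UMI of Prox1 or Cnr1 was present in 367 of the 596 Reln-0 cells (61.6%).

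Neuropeptide genes moved in both directions, with 3 higher and 3 lower of 8 tested and a median of -0.18. Npy (chromosome 6, 49822710 to 49829507) was at 1501, 1873, 5450, 4523 and 3972 CPM in Reln-0 cells and 469, 1171, 2270, 1182 and 2242 in cells with Reln. It was higher in all 5 libraries, at a log2 fold of 1.24 (SE 0.088, adjusted p 4.02e-19), with ranges that overlapped between libraries. Cort, which encodes cortistatin (chromosome 4, 149125034 to 149126763), was at 159, 144, 124, 223 and 178 against 489.9, 169, 287, 619.5 and 351, lower in each library, at -1.11 (SE 0.087, adjusted p 3.95e-17). Nppc, a natriuretic peptide, was higher by 1.11, Tac1, the substance P precursor, lower by a log2 fold of -1.44, and Pnoc, the nociceptin precursor, lower by -0.36. None of these 3 passed without null replicate 2. There the folds of Nppc (0.93) and Pnoc (-0.35) stayed near their size, and that of Tac1 shrank to -0.53. Of the peptide receptors 3 were tested and none passed (median 0.25).

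Genes of nitric oxide signalling differed in its receptor and not in its synthase. Nos1 (chromosome 5, 117781032 to 117958840) was at 185, 267, 262, 253 and 198 CPM in Reln-0 cells and 277, 289.8, 302, 146 and 201 in cells with Reln, lower in 4 libraries and higher in null replicate 1. Its log2 fold was -0.04 (SE 0.088, adjusted p 0.878). Gucy1a3, the alpha subunit of the guanylate cyclase that binds nitric oxide (chromosome 3, 82092427 to 82145789), was at 51.2, 58.7, 77.3, 27.5 and 33.5 against 32.0, 12.1, 22.0, 15.6 and 11.03. It was higher in all 5 libraries, by 1.64 (SE 0.19, adjusted p 2.91e-10), with 3, 1, 25, 3 and 45 UMIs in cells with Reln. The beta subunit Gucy1b3 (0.54) and the cyclic nucleotide phosphodiesterase Pde11a (0.46) also passed, but not without null replicate 2 (0.24 and 0.44) or, for Pde11a, without WT replicate 3 (0.39). Of 9 genes of the pathway tested these 3 were higher and none lower, with a median of 0.11.

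The remaining label markers did not separate the classes. Id2 was at 1095, 555, 750.1, 1459 and 909 against 1182, 785, 799, 2223 and 908, and Sema3c at 154, 294, 334, 201 and 314 against 341, 374, 332, 193 and 340.4. Their log2 folds were -0.16 (SE 0.069, adjusted p 0.141) and -0.11 (SE 0.080, adjusted p 0.544). Of the 13 genes of neurogliaform and ivy identity tested, 3 were higher, Npy, Gabra5 and the rule gene Lamp5 (median -0.04), and 3 lower, the rule gene Hapln1 included. Nkx2-1 was lower by a log2 fold of -0.52, and did not pass without WT replicate 3 (-0.51) or without null replicate 2 (-0.51).

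**Figure D2:**
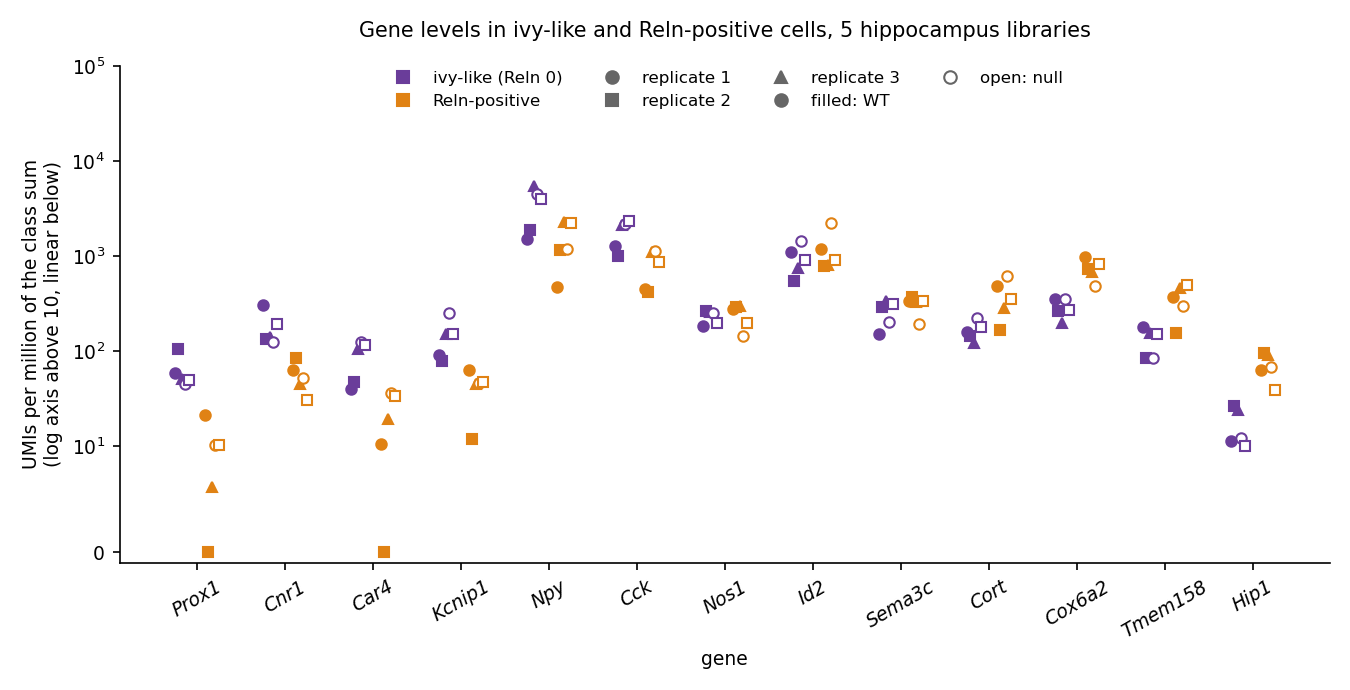
CPM of 13 genes in Reln-0 cells (purple) and cells with Reln (orange), 1 point per library (shape, replicate; filled, WT; open, null), on a log axis that is linear at the bottom. Prox1 and Cnr1 are higher in Reln-0 cells in all 5 libraries and Cort and Tmem158 lower, while Nos1 lies at 185 to 267 in Reln-0 cells and 146 to 302 in cells with Reln.

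Transcription factors of interneuron fate differed for 12 of 28 tested, 7 higher and 5 lower, with a median of 0.13. Besides Prox1, Reln-0 cells had more Sox5 (1.36) and Rora (0.63). Rora, a nuclear receptor, was at 267, 406, 301, 320.5 and 326 CPM against 224, 157, 216, 177 and 211, with no overlap (SE 0.083, adjusted p 1.25e-08). Bcl11b, a zinc finger factor, was at 179, 336, 192, 186 and 193 against 266, 386, 382, 229 and 325, lower in each library by a log2 fold of -0.73 (SE 0.084, adjusted p 2.00e-10). Zbtb20 was higher by 0.86, and did not pass without WT replicate 3 (0.67).

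Dab1 and some genes of axon guidance were lower in Reln-0 cells. Dab1 encodes the adaptor protein that carries the reelin signal into the cell (chromosome 4, 103619359 to 104744844). It was at 39.8, 101, 61.1, 39.7 and 53.1 CPM in Reln-0 cells and 224, 193, 149.9, 125 and 137 in cells with Reln. The classes did not overlap, and the log2 fold was -1.38 (SE 0.12, adjusted p 1.67e-15). Of 22 matrix and guidance genes tested 7 were lower, Hapln1 included, and 3 higher, with a median of -0.21. The guidance receptors Robo2 (-0.89) and Unc5c (-0.57), the semaphorin Sema6d (-1.27) and the proteoglycan Vcan (-0.63) were lower, and the semaphorin receptor Plxna4 was higher (1.25). Robo2 was at 34.1, 123, 67.0, 30.5 and 73.8 against 117, 145, 145, 62.5 and 129, lower in every library.

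Receptor and channel genes moved both ways. Of 15 genes of GABA receptors 3 were higher and 2 lower (median 0.02). Gabra5, an alpha subunit of extrasynaptic receptors (chromosome 7, 57407672 to 57510059), was at 71.1, 64.0, 111, 101 and 72.4 CPM against 10.7, 24.2, 63.5, 52.1 and 51.2. It did not overlap between the classes and was higher by 0.68 (SE 0.12, adjusted p 2.56e-05). In WT replicates 1 and 2 the cells with Reln had only 1 and 2 UMIs of it. The extrasynaptic subunit Gabrd was lower by -0.67, which did not pass without null replicate 2 (-0.59). Of 25 potassium channel genes 4 were higher and 5 lower (median -0.19). Kcnip1 and Kcnd2 encode a subunit and the pore of the A-type channel, and they went in opposite directions. Kcnip1 (chromosome 11, 33629339 to 33993152) was at 91.0, 80.1, 151, 253 and 152 against 63.9, 12.1, 45.8, 46.9 and 47.3, with no overlap and a fold of 1.73 (SE 0.12, adjusted p 2.30e-19), and Kcnd2 was lower by -0.98. The sodium and calcium channel partners Fgf13 (0.58) and Cacnb4 (0.55) were the 2 of 15 that passed (median -0.02).

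Glutamate receptor genes that passed were lower in Reln-0 cells. Of 12 AMPA and kainate receptor genes 3 were lower and none higher (median -0.00), and of 9 NMDA receptor genes 1 was lower (median -0.00). Gria1, an AMPA receptor subunit, was at 759, 843, 846, 693 and 692 CPM against 1129, 1026, 1036, 1020 and 839, lower in each library by a log2 fold of -0.33 (SE 0.065, adjusted p 0.000126). Gria3 (-0.59) and the NMDA receptor subunit Grin3a (-0.84) did not pass without WT replicate 3 (-0.45 and -0.61), and Grik1 (-0.61) did not pass without null replicate 1 (-0.54) or without null replicate 2 (-0.73). None of 3 metabotropic receptor genes passed (median 0.16).

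Adhesion, release and calcium-binding genes gave smaller sets. Of 30 adhesion genes 4 were higher and 4 lower (median 0.06), among them Nrxn3, a presynaptic neurexin (0.86), Pcdh10 (0.82) and Tenm1 (-0.55). Nrxn3 was at 583, 640.5, 508, 388 and 501 CPM against 469, 278, 281, 292 and 259.7, higher in every library. Of 14 genes of calcium-binding proteins 5 were higher and none lower (median 0.20), with Necab1 at 1.19 and Vsnl1 at 0.59. Release genes gave 3 higher and 2 lower of 21 (median 0.07), trophic and neuromodulator receptors 2 and 3 of 14 (median 0.09), GABA synthesis and transport none and 2 of 6 (median -0.02). Erbb4, the neuregulin receptor, was lower by -0.29, and did not pass without WT replicate 3 (-0.26) or without null replicate 2 (-0.38). Jund, higher by 0.31, was the 1 activity-regulated gene tested, and it did not pass without WT replicate 3 (0.38), null replicate 1 (0.28) or null replicate 2 (0.30).

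Outside the lists, further genes differed with the same sign in every library. Car4, a membrane-bound carbonic anhydrase (chromosome 11, 84957786 to 84966044), was at 39.8, 48.0, 105, 125 and 115 CPM in Reln-0 cells and 10.7, 0, 19.4, 36.4 and 33.6 in cells with Reln. The classes did not overlap, and the log2 fold was 1.94 (SE 0.13). In WT replicates 1 and 2 the cells with Reln had only 1 and 0 UMIs of it. Also higher were the secreted protease Htra1 (1.83), Ddah1 (1.63), an enzyme that degrades inhibitors of nitric oxide synthase, the prolactin receptor Prlr (1.53), Enc1 (1.42) and St6galnac5 (1.40). Tmem158 (chromosome 9, 123259053 to 123260764) was at 182, 85.4, 154, 85.5 and 153 against 373, 157, 465, 297 and 503, lower in every library by -1.60 (SE 0.084, adjusted p 2.03e-25), the smallest adjusted p. Cox6a2, a subunit of cytochrome oxidase (chromosome 7, 128205435 to 128206387), was at 353, 267, 197, 351 and 275 against 979.9, 725, 679, 489 and 821, without overlap, at -1.49 (SE 0.082). Baiap2l2 was at 91.0, 21.3, 38.35, 42.7 and 25.6 against 181.1, 72.5, 155, 172 and 121, lower in every library. Lower too were Ramp3 (-2.11), Hip1 (-1.96), Btbd3 (-1.42), Tmem176b (-1.41), Crispld1 (-1.32) and Atp6ap1l (-1.31).

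Markers of other cells were summed beside these results. Oligodendrocyte markers reached 475, 2578, 638, 174 and 316 CPM in Reln-0 cells and 1214, 821, 250.0, 427 and 292 in cells with Reln, with Mog at 0 by the rule. WT replicate 2 was the highest in Reln-0 cells and WT replicate 1 in cells with Reln. Markers of PVALB cells summed to 370, 432, 421, 534 and 555 against 383, 556, 470, 500 and 442, with Kcnc1 the most abundant except in null replicate 1 of the cells with Reln, where Tac1 was. Pvalb passed at 1.18 but was -0.25 without null replicate 2. Microglial markers were at 0, 0, 0, 0 and 0.568 in Reln-0 cells and at 76.7 in WT replicate 3 of the cells with Reln. Endothelial markers were at 0 in Reln-0 cells of all 5 libraries. The part of these cells' RNA in the results was not tested.

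A wider comparison set Reln-0 cells against the 1871 hippocampal GABAergic cells with no UMI of Lamp5 or Hapln1 (275, 626, 335, 75 and 560 by library, at a median of 6159 UMIs). It asks how far the cells differ from the bulk of sorted interneurons in genes the rule did not use. Of 9730 genes tested 2133 passed (21.9%), 1023 higher (10.5%) and 1110 lower (11.4%) in Reln-0 cells. All 3 free label markers were higher. Nos1 was at 33.2, 118, 30.8, 36.3 and 77.1 CPM in the other cells, against 185 to 267 in Reln-0 cells, Id2 at 111, 56.1, 47.6, 72.7 and 58.1 against 555 to 1459, and Sema3c at 12.1, 11.2, 16.2, 10.2 and 5.75 against 154 to 334. No library of either class overlapped the other, and the log2 folds were 2.05 (SE 0.19), 3.84 (SE 0.11) and 4.88 (SE 0.18), all 3 higher in 5 of 5 libraries. Without null replicate 2 the count was 1272, and 1241 of these were among the 2133. With cells of at least 5000 UMIs 1904 passed, 1798 of them shared.

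Of 11 identity genes tested 10 were higher and none lower, with a median log2 fold of 2.54 beside -0.01 over all genes. Cacna2d1, a calcium channel subunit (chromosome 5, 15934691 to 16374511), was at 327, 640.5, 552, 385 and 619 CPM in Reln-0 cells and 0.604, 30.4, 12.2, 4.54 and 4.95 in the others, a fold of 5.97 (SE 0.23). Egfr, the receptor of epidermal growth factor (chromosome 11, 16752203 to 16918158), was at 76.8, 32.0, 76.7, 36.6 and 66.4 against 1.21, 4.62, 0.331, 0 and 1.34. Neither gene overlapped between the classes. Also higher were the complexin Cplx3 (5.04), Gabra5 (2.54) and Nkx2-1 (2.51). Npy, at 829.7, 2812, 912, 2074 and 4402 in the other cells, overlapped with Reln-0 cells and did not pass (0.82, adjusted p 0.0205).

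Transcription factors differed for 29 of 36 tested, 19 higher and 10 lower (median 0.40). The nuclear factor I genes Nfix (4.32), Nfib (3.90) and Nfia (3.22) were higher, as was Prox1 (3.97). Nfix (chromosome 8, 84699876 to 84800344) was at 375, 336, 500.5, 369 and 313 CPM in Reln-0 cells and 24.8, 30.4, 25.1, 7.95 and 13.4 in the others, far apart in every library. Satb1, a chromatin organiser of somatostatin and parvalbumin cells (chromosome 17, 51736187 to 51833290), was at 0, 0, 4.55, 6.10 and 17.6 against 538, 442, 628, 463 and 412, a fold of -5.38 (SE 0.22). Sox6 (-3.50), Npas1 (-4.33) and Nr2f2 (-1.94) were lower as well.

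Neuropeptide genes were mostly lower, 8 of 11 against 2 higher (median -1.81). Tac1 (-4.05), Penk (-2.76) and Cort (-2.12) were among the lower, and Cck (3.09) and Pnoc (1.23) were the higher ones. Cck was at 163, 203, 331 and 226 CPM in the other cells of WT replicates 1 and 3 and null replicates 1 and 2, and in every library under all 5 Reln-0 values of 1014 to 2335. Of 10 peptide receptor genes 4 were higher and 5 lower (median -0.38), with the orexin receptor Hcrtr2 (4.45), the substance P receptor Tacr1 (2.30) and Npy1r (1.71) higher. In the nitric oxide list 5 of 16 were higher and 4 lower (median -0.06), with Pde11a at 4.77.

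Synaptic receptor genes shifted in subunit. Of 9 NMDA receptor genes Grin2a was higher (2.65) and Grin3a (-2.21) and Neto1 (-1.58) lower (median -0.16), and Grin1 did not pass (-0.10). Of 18 AMPA and kainate genes 10 were lower and 1 higher (median -0.39), with Gria3 at -2.51 and Gria2 at -0.88. Gria3 was at 37.0, 32.0, 23.4, 42.7 and 50.3 CPM in Reln-0 cells and 196, 319, 195, 184 and 252 in the others, with no overlap. Of 20 GABA receptor genes 7 were higher and 4 lower (median 0.09), with Gabrg3 (1.56) and Gabrd (1.26) higher and Gabra3 lower (-1.55). GABA synthesis and transport gave 2 higher and 1 lower of 6 (median -0.13). Of 5 metabotropic receptor genes 1 was higher and 3 lower (median -0.32).

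Channel, matrix and calcium-binding genes completed the contrast. Of 38 potassium channel genes 11 were higher and 13 lower (median -0.09), the calcium-activated channel Kcnn2 at 2.77 and the fast delayed rectifier Kcnc2 at -2.95. Of 24 sodium and calcium channel genes 4 were higher and 5 lower (median 0.03). Matrix and guidance gave 10 higher and 13 lower of 32 (median -0.22), adhesion 10 and 20 of 49 (median -0.26), trophic and neuromodulator receptors 10 and 10 of 29 (median -0.25), release 9 and 7 of 26 (median 0.04) and activity-regulated genes 2 and 4 of 13 (median 0.05). Calcium-binding proteins gave 7 higher and 9 lower of 18 (median -0.35), with Necab2 at 2.98, Calb1 at -2.92 and Calb2 at -4.12. Calb1 was at 73.9, 10.7, 46.8, 101 and 94.8 CPM in Reln-0 cells and 439, 396, 308, 470.2 and 897 in the others, lower in every library.

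Outside the lists Cryab, a small heat shock protein (chromosome 9, 50751325 to 50756636), led the higher genes. It was at 1265, 342, 707, 760.0 and 646 CPM in Reln-0 cells and 18.7, 25.1, 5.96, 4.54 and 7.08 in the others, a log2 fold of 6.14 (SE 0.21). Nov (5.96), Atp6ap1l (5.84), Frem1 (5.33), the homeobox gene Nkx2-9 (5.21) and the RNA-editing family gene Adarb2 (5.20) followed. Atp6ap1l was thus higher here and lower against cells with Reln. Rbp4, which carries retinol (chromosome 19, 38116629 to 38125281), was at 5.69, 0, 12.3, 12.2 and 24.1 against 735, 520.2, 1362, 1321 and 919, a fold of -5.85 (SE 0.16). Markers of SST cells other than Sst gave 2 lower of 2 tested, and of PVALB cells 3 lower of 4. Of caudal eminence markers 3 of 4 were higher, Prox1, Cck and Sncg, while Cnr1 did not pass. None of 4 oligodendrocyte markers passed (median 0.42).

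The genotype comparison within Reln-0 cells asks what the loss of Grin1 left changed at the juvenile age. Grin1 itself (chromosome 2, 25291181 to 25319187) was at 139, 139 and 142 CPM in WT replicates 1, 2 and 3 and at 33.6 and 13.6 in null replicates 1 and 2. The null libraries were far under the WT libraries, with means of 140.2 ± 1.93 (SD, n = 3) and 23.6 ± 14.1 (SD, n = 2). The log2 fold was -2.86 (SE 0.48), -2.05 within the v2 chemistry, -3.37 within v3 and -2.81 with the replicate number as a block. With edgeR over 5889 genes its adjusted p was 0.369 and it did not pass, with DESeq2 the adjusted p was 0.000829 and with the block 0.00117, and over all 18 alternatives the range was 2.46e-05 to 0.998, with Grin1 passing in 4 of them. Its fold stayed between -3.75 and -2.01, and the highest adjusted p values came without null replicate 2 (0.998) and without WT replicate 3 (0.942). Thinned Grin1 detection was 28.6%, 22.5%, 25.2%, 0% and 1.82% of cells by library, against 0.223% in oligodendrocytes, where 0 of the 25 thinned cells of null replicate 1 is a small count.

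No gene passed between genotypes with edgeR (0%), against 142 of 5889 at an unadjusted p under 0.05 and 1, Grin1, with DESeq2. With the replicate number as a block, which leaves 1 residual degree of freedom, 11 passed. With cells of at least 5000 UMIs none passed with edgeR. Without WT replicate 1 the count was 1 (Bcas1) and without WT replicate 2 it was 1 (Xist). A median log2 fold of -0.02 was seen over all genes tested. The genes that follow are given as values, each with an adjusted p of 0.999 in the fit without a block, except Xist at 0.559.

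Of the label markers, Nos1 and Sema3c had close means between genotypes, and the mean of Id2 was higher in null. Nos1 averaged 238 ± 46.0 (SD, n = 3) CPM in WT and 226 ± 38.8 (SD, n = 2) in null, with overlapping libraries and a log2 fold of -0.09 (0.45 within v2 and -0.41 within v3, -0.04 with the block). Sema3c averaged 260.4 ± 94.7 and 258 ± 79.6 (-0.03, 0.39 within v2 and 0.00 within v3, 0.19 with the block), and Id2 800.0 ± 273 and 1184 ± 389 (0.56, 0.41 within v2 and 0.48 within v3, 0.52 with the block). Id2 overlapped too, since WT replicate 1 exceeded null replicate 2. The 11 identity genes tested had a median of -0.03. Npy averaged 2941 ± 2180 and 4248 ± 389 with overlap (0.53, 1.59 within v2 and 0.12 within v3, 1.30 with the block).

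Grin2a and Grin2b, which encode partner subunits of Grin1, lay lower in null without passing. Grin2b was at 432, 720.5, 390.0, 281 and 299 CPM and Grin2a at 156, 160.1, 219, 149.6 and 121. In both genes each null library was under each WT library. Their log2 folds were -0.84 (-0.62 within v2, -0.89 within v3, -0.998 with the block) and -0.44 (-0.06 within v2, -0.64 within v3, -0.28 with the block), and the 9 NMDA receptor genes tested, Grin1 included, had a median of -0.51. The other 6 overlapped between genotypes, such as Neto1 at 76.8, 37.4, 45.5, 39.7 and 63.9. Medians of other roles were -0.35 for 21 matrix and guidance genes, -0.29 for 33 adhesion genes, -0.29 for 14 trophic and neuromodulator receptor genes, -0.25 for 5 genes of GABA synthesis and transport, -0.22 for 3 peptide receptor genes, -0.17 for 21 release genes, -0.13 for 4 metabotropic receptor genes, 0.12 for 14 genes of calcium-binding proteins, -0.13 for 13 AMPA and kainate genes, -0.15 for 17 GABA receptor genes, -0.28 for 10 genes of nitric oxide and cyclic GMP, 0.53 for 7 neuropeptide genes, -0.04 for 31 potassium channel genes, -0.16 for 18 sodium and calcium channel genes and -0.23 for 28 transcription factors.

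Among the smallest p values with no overlap, Itm2b, a membrane protein of neurons, was at 512, 384, 491, 986 and 1252 CPM and the vesicle protein Rab3b at 93.8, 58.7, 96.8, 174 and 183. Both were above the WT range in both null libraries, Itm2b by a log2 fold of 1.26 (0.95 within v2, 1.52 within v3, 1.28 with the block) and Rab3b by 0.89 within v2, 1.23 within v3 and 1.20 with the block. Grhpr (1.99), Plcxd3 (1.41) and Abhd16a (1.33) lay the same way. On the other side were Cd9 (-3.27), S100a16 (-3.12) and Mbp (-2.56), which all passed with the replicate number as a block (-3.83, -3.84 and -2.66). Cd9 and S100a16 passed also with the v3 libraries alone (-3.46 and -3.56). Mbp was at 171, 1014, 201, 58.0 and 96.0, with WT replicate 2 far above the rest. Without that library its fold was -1.20, and the part of oligodendrocyte RNA in these values was not tested.

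The activity-regulated genes Fos, Jun and Egr1 were high in replicate 2 of both genotypes, which did not hold evenly for every such gene. Fos was at 2.84, 320.2, 14.9, 0 and 460.3 CPM, Jun at 11.4, 267, 16.9, 12.2 and 271, and Egr1 at 0, 165, 1.95, 0 and 157. WT replicate 2 and null replicate 2 were high in all 3 genes and the other 3 libraries low, although the buffers held blockers of firing and of transcription. Other members matched less between these libraries. Junb had 8 of 187362 UMIs in WT replicate 2 and 769 of 3521789 in null replicate 2. Dusp1 had 8 and 507 UMIs there, also a larger part in null, and Fosb had 13 and 124, a larger part in WT. The fold of Fos was 1.28 without a block and 0.25 with the replicate number as a block, and the 9 genes of this list had a median of 1.28. Xist, expressed from the inactive X chromosome of females, was at 725, 0, 388, 0 and 0, and Y-linked genes summed to 119, 224, 105, 156 and 206, so Xist RNA was seen in Reln-0 cells of WT replicates 1 and 3 only. No null library showed it in these cells, so genotype values cannot be fully told apart from a difference of sex. Xist also passed with the block and with the v3 libraries alone.

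**Figure D3:**
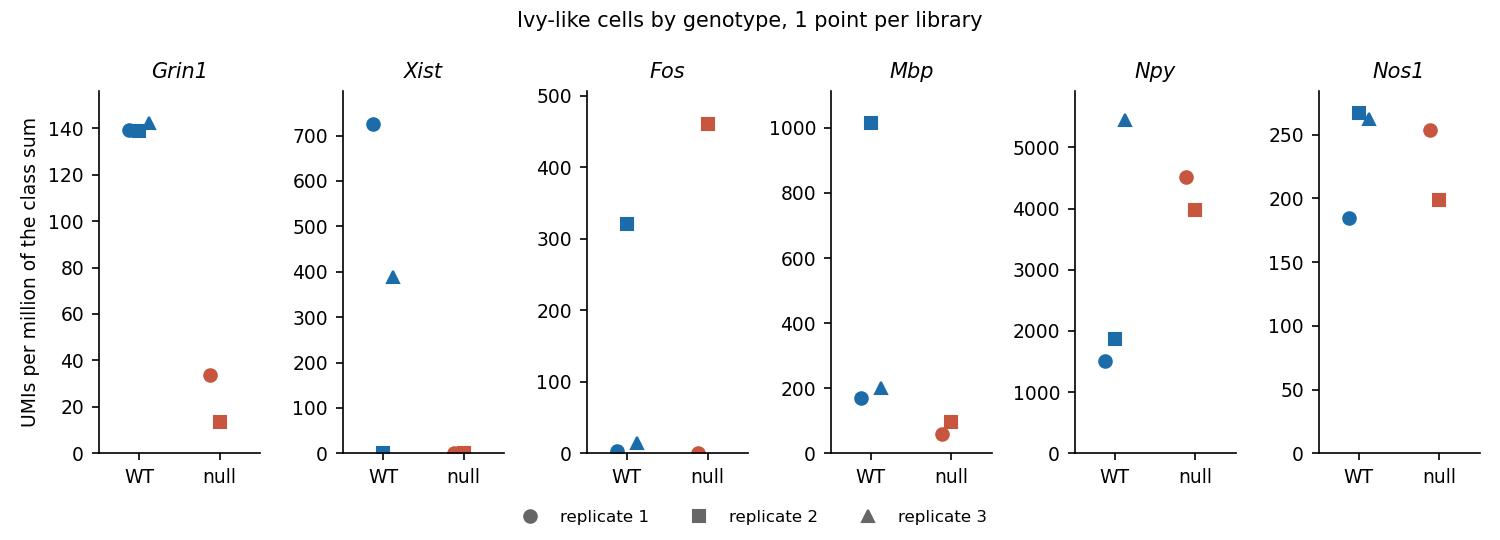
CPM of Grin1, Xist, Fos, Mbp, Npy and Nos1 in Reln-0 cells by genotype, 1 point per library (shape, replicate), each gene on its own linear axis. Grin1 is at 139 to 142 in the WT libraries and at 33.6 and 13.6 in the null libraries, and Fos is high in WT replicate 2 and null replicate 2.

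Markers of other cells were summed in Reln-0 cells by genotype as well. Summed CPM over the 5 libraries were 56.9, 69.4, 41.0, 104 and 98.2 for SST cells, 17.1, 37.4, 16.9, 39.7 and 25.8 for astrocytes, 8.53, 58.7, 29.3, 3.05 and 7.10 for oligodendrocyte precursors and 5.69, 5.34, 4.55, 9.16 and 10.2 for TH cells. The SST sum was higher in both null libraries than in any WT library. So was the sum of PVALB markers (370, 432, 421, 534 and 555), and the sum of oligodendrocyte markers (475, 2578, 638, 174 and 316) was lower in both. No sum was tested. Glutamatergic markers were at 0, 0, 3.90, 0 and 0.852, mural markers at 2.84, 0, 1.95, 0 and 1.99, erythroid markers at 0, 5.34, 0, 0 and 3.98, and the choroid plexus gene Ttr at 5.69, 0, 57.9, 0 and 2.27. Their part in the genotype values was not tested.

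Whether Grin1 loss acted differently in Reln-0 cells and in cells with Reln was tested as the interaction of genotype and class. Of 6646 genes 6 passed with edgeR (0.0903%), 1 with a higher fold in Reln-0 cells and 5 with a lower, against none with DESeq2 and 170 at an unadjusted p under 0.05. Grin1 did not pass (-0.32), being at 117, 121, 123, 15.6 and 15.9 CPM in cells with Reln. The count ran from 0 without WT replicate 3 to 11 without WT replicate 1, and it was 2 without null replicate 2 and 4 without WT replicate 2. With cells of at least 5000 UMIs, where WT replicate 2 also dropped out, 4 passed, 3 of them shared. Pvalb passed at 2.34 (SE 0.30, adjusted p 4.33e-11), from 0, 133, 42.9, 58.0 and 215 CPM in Reln-0 cells and 10.7, 133, 69.7, 5.21 and 63.8 in cells with Reln. In WT replicate 1 these were 0 against 1 UMI and in null replicate 1 they were 19 against 1. In both replicate 1 libraries the value of cells with Reln thus rested on 1 UMI. Pvalb did not pass without WT replicate 3 (1.90), nor without null replicate 2, where the value was larger. Tac1, Cd9, Igfbp2 and Bcas1 were among the others, and Tac1, Igfbp2 and Bcas1 were chosen after their values were seen.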

How the data were processed

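The authors deposited UMI counts as 4 matrices, hippocampus and cortex of each genotype, from Cell Ranger 2.1.1 per the labels, on mm10 with gene ends extended. Barcode suffixes were taken as libraries and matched to replicates by their number of barcodes. All 43348 genes were read. The members and the gene lists were chosen with earlier results of these data known. In every library the UMIs of a class were added up (at least 5 cells a sum) and tested with edgeR 4.0.16 (quasi-likelihood, TMM, filterByExpr, Benjamini-Hochberg over all genes tested) under R 4.3.3, with Python 3.11.15, numpy 2.4.6, pandas 2.3.3 and scipy 1.17.1 for the rest. DESeq2 1.42.0 was the other tool. Within a library, the library was a block. Fold errors are the log2 fold divided by the root of the F statistic. Shares were compared by a two-sided exact permutation test over libraries. In the comparison with cells that carry Reln only Reln was set aside, and in the others all genes of the rule. CPM is relative to all UMIs of the class in that library. Doublets were scored with Scrublet in scanpy 1.11.5 at an assumed rate of 0.06, and the cells were kept. Named genes were the label markers and the genes the study named for neurogliaform cells, list members that passed and up to 4 others of each list with the highest mean, and per comparison the 10 largest differences in each direction with the same sign in every library and a mean of at least 20 CPM in the higher class, filled up to 5 by p. There were 18 lists of roles and 14 of markers. Coordinates are from GENCODE M21 on GRCm38. Alternatives were DESeq2, a looser adjusted p, another normalization, mitochondrial genes left out, more cells a sum, no filter on low counts, stricter and deeper cells, thinning, doublets removed, other Hapln1 and Reln limits, v3 libraries alone, a changed block and each library left out. Results of some genes are not reported here, although they are in the counts.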

Additional observations from a re-analysis of the deposited data

Results flagged for a closer look

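The interaction of genotype and class passed for 6 genes, which differed in their genotype effect between Reln-0 cells and cells with Reln. Among them Pvalb had a log2 difference of 2.34, Tac1 of -1.96, Cd9 of -3.65, Igfbp2 of -1.08 and Bcas1 of -2.38. Bcas1, a gene of the oligodendrocyte lineage, was at 5.69, 278, 105, 0 and 8.23 CPM in Reln-0 cells against 10.7, 193, 8.82, 0 and 8.83 in cells with Reln, and Cd9 at 11.4, 96.1, 74.8, 0 and 7.67 against 0, 24.2, 7.05, 0 and 10.5. In WT replicates 2 and 3 both were high in Reln-0 cells, and in null replicate 1 both were at 0 in both classes. Neither passed without null replicate 2 (-2.28 and -3.19), and Bcas1 was -0.58 without WT replicate 3. Tac1 was at 31.3, 10.7, 51.4, 109.9 and 25.3 against 74.6, 48.3, 42.3, 276 and 119, so that WT replicate 3 alone had more in Reln-0 cells, and without that library it was -0.57 and did not pass. Igfbp2 was at 17.1, 112, 166, 30.5 and 85.2 against 32.0, 133, 275, 41.6 and 300.6, lower in Reln-0 cells in every library, and its difference turned to 0.26 without null replicate 2. The cause of these differences was not tested.

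Cells that met every criterion of the rule were also present in cortex, which no comparison here used. There were 149 of them, among 248 cortical cells that met all criteria but the one on Reln and 5849 cortical GABAergic cells. By library the share with no Reln UMI was 72.7%, 63.5%, 62.0% and 33.3% in the first 4, the last being 1 of 3 cells, and equal numbers with and without Reln in null replicate 2.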

How the results depend on the processing

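The difference in the share without Reln kept its direction under every alternative (-20.1 to -9.21 points with each library left out), although it was -0.377 with cells thinned to 2000 UMIs. The share among GABAergic cells turned to -2.53 points without WT replicate 2 (-2.53 to 5.86). Against cells with Reln 344 genes passed, while 552 passed at an adjusted p under 0.05, 100 with DESeq2, 70 of 2240 with cells thinned to 2000 UMIs, 129 to 445 with each library left out (136 without null replicate 2) and 1 (Prox1) with the block of the library removed. Against other GABAergic cells removing that block left 568 of 2133, and leaving out each library gave 1272 to 2098. Between genotypes DESeq2 passed 1 gene, no filter on low counts 24, the v3 libraries alone 19 with 1 residual degree of freedom, the replicate block 11 and each library left out 0 to 1. Replicates of a number share chemistry, and their deviations correlated across 5894 genes at 0.269 and 0.191 for the 2 shared numbers, genes not being independent, while no label pairs them. The deviations of 2 null libraries mirror each other, so the unlike numbers gave -0.269 and -0.191. The 2 values are therefore not separate support for a pairing. The 6 interaction genes became 0 with DESeq2, 3 with doublets removed and 0 to 11 with each library left out (2 without null replicate 2), where Igfbp2 turned to 0.26 (-1.41 to 0.26 over the libraries left out). Pvalb against cells with Reln turned to -0.25 without null replicate 2 (-0.25 to 1.66). Over all alternatives, the 95 named genes that passed against cells with Reln gave 1263 values of the same call, 297 that no longer passed and 1 reversed. The 250 against other GABAergic cells gave 3436, 275 and none, and the 6 interaction genes gave 57, 26 and 1. With 2 null libraries, 1 of them with 25 cells, small genotype effects could be missed.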
